A study of Mus musculus with 6 samples.

Results

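The genes described here are 10 receptors and signalling proteins through which gut epithelium senses microbial products: the Toll-like receptors Tlr1, Tlr2, Tlr3, Tlr4 and Tlr5, the cytosolic receptors Nod1 and Nod2, the adaptor Myd88 and the inhibitors Tollip and Sigirr. They were taken by gene symbol, and each of the 10 was present among the 55487 listed genes and passed the filter on low counts, as did 14650 genes in all. RNA was sequenced from intestinal epithelial cells (IECs) of the colon after the mice had drunk dextran sodium sulphate (DSS), an agent that damages the epithelial lining and brings on colitis. The Nsd2 f/f libraries (n = 3, labelled wild-type) come from mice that carry the floxed gene without Cre and so keep it. The Nsd2 Vil-KO libraries (n = 3) come from mice that also carry Cre under the Villin promoter, which is active in intestinal epithelium and deletes the floxed gene there. By the methods the mice were of C57BL/6J background and 2 months old and received 2% DSS, and every library came from a DSS-treated mouse, so no level without colitis can be given. Cells outside the epithelium keep Nsd2 in both genotypes. The labels do not say whether each library is a separate animal, and p-values therefore measure only the spread between these libraries. Nsd2 encodes an enzyme that places 2 methyl groups on lysine 36 of histone H3, and the comparison asks whether its loss altered the transcripts of the sensing machinery during colitis.

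Toll-like receptors are membrane proteins with an outer domain of leucine-rich repeats that binds a microbial product and an inner TIR domain that recruits adaptors. TLR2 pairs with TLR1 or TLR6 to bind bacterial lipopeptides, TLR4 with MD-2 and CD14 binds lipopolysaccharide, and TLR5 binds flagellin. TLR3 sits in endosomes and binds double-stranded RNA, so it is a sensor of viral rather than bacterial products and, unlike the other TLRs here, does not signal through MYD88. NOD1 and NOD2 bind fragments of peptidoglycan in the cytosol and signal through RIPK2, while TOLLIP and SIGIRR dampen signals from the TLRs and from receptors of the interleukin-1 family.

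None of the 10 genes passed the screening criterion used here, a fold change above 1.2 with an unadjusted p below 0.05, where 3.29% of all tested genes did (482 genes; 241 or 1.65% higher and 241 or 1.65% lower in Nsd2 Vil-KO). The fold limit is that of the study's screen, whose description does not say whether its p-value was adjusted, while the methods name an adjusted p-value, so both were counted. No tested gene reached an adjusted p below 0.05 by edgeR's quasi-likelihood test (0%), while 482 had an unadjusted p below 0.05 and DESeq2 placed 4 genes, none of them among the 10, below an adjusted p of 0.05. The log2 fold change (Nsd2 Vil-KO over Nsd2 f/f) was above 0 for 6 of the 10 genes and below 0 for 4, with a median of 0.14 beside 0.00 over all tested genes. For 9 of the 10 it lay between -0.34 and 0.32, and Tlr5, at 1.35, stood apart. The levels of the 2 genotypes did not overlap for 1 of the 10 genes, Tlr5, against 9.9% of all tested genes (5.21% higher and 4.7% lower in Nsd2 Vil-KO).

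The libraries held from 15439123 to 20350539 counted reads each. The deleted gene itself stood at 47.9, 51.2 and 24.6 CPM (counts scaled to the size of each library with TMM factors) in the Nsd2 f/f libraries, given here and throughout in the order of replicates 1, 2 and 3, and at 24.2, 10.4 and 20.8 CPM in Nsd2 Vil-KO (log2 fold change -1.16, SE 0.39, n = 3 per genotype), so the library labelled Nsd2 f/f replicate 3 barely differed from Nsd2 Vil-KO replicate 1. That library also had 19.6% of its counts on mitochondrial genes, against 5.51% to 9.13% in the other 5. Besides it, Nsd2 Vil-KO replicate 2 was the only library with Xist transcripts above 1 CPM (278 and 181 CPM), and values of the 10 genes that rest on either are given without it. Epithelial markers such as Epcam, Krt8 and Lgals4 summed to between 14135 and 21925 CPM in each library (10 of 10 markers detected). Markers of other cells were also present. The 10 macrophage markers other than Cd14 summed to 238, 81.0 and 14.1 CPM in Nsd2 f/f and to 88.7, 22.9 and 39.2 CPM in Nsd2 Vil-KO, with the defining marker Adgre1 at 0 in Nsd2 f/f replicate 3. The 9 neutrophil markers summed to between 207 and 903 CPM in Nsd2 f/f and between 198 and 2363 CPM in Nsd2 Vil-KO. The sum of 207 CPM, in Nsd2 f/f replicate 3, was mostly Ly6g (197 CPM), with S100a8 at 3.07 CPM and Cxcr2 at 0. The highest sum was that of Nsd2 Vil-KO replicate 2, where Ly6g was at 1355, S100a8 at 574 and S100a9 at 405 CPM. These 3 genes and Ngp were highest in that library. The markers did not move together, since Csf3r was lowest in the same library (0.666 CPM). Csf3r, Cxcr2, Retnlg, Mmp8 and Camp were highest in Nsd2 f/f replicate 1. The median log2 deviation over the 7 tested markers was also highest there (2.85, against 1.89 in Nsd2 Vil-KO replicate 2). Summed markers of fibroblasts ranged from 5.05 to 263 CPM, of T cells from 9.21 to 38.1 CPM, of B and plasma cells from 6.05 to 49.0 CPM, of smooth muscle from 2.02 to 17.7 CPM, of endothelium from 5.01 to 7.56 CPM and of distal colon from 389.7 to 887 CPM. Of the tested genes of all these marker lists 2 passed the screening criterion, where 3.29% of all tested genes did. They were Vwf (higher) and Pecam1 (lower in Nsd2 Vil-KO), 2 of the 3 tested endothelial genes, and so gave no common direction. In bulk RNA fewer cells of a type cannot be told apart from less RNA per cell.

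The promoters of 4 of the genes are shown because 3 of them hold letters that factors of the NF-kB or interferon pathway are known to bind and the fourth, Tlr5, had the largest difference between genotypes. Promoter windows from RefSeq, 250 bases before to 50 bases after the transcript start (build GRCm38.p6), were matched by symbol to 8 of the 10 genes, and Tlr4 and Sigirr are named only. Each window was searched on both strands for the kappa B letters bound by NF-kB, the factor at the end of the MYD88 and RIPK2 routes (GGGANNTTCC or GGGGNNTTCC), and for the core letters of the interferon-stimulated response element (GAAANNGAAA). Capitals mark a match. The sequences below are those of Tlr2 (chr3:83841559-83841858, minus strand), Tlr3 (chr8:45410331-45410630, minus strand), Myd88 (chr9:119339969-119340268, minus strand) and Tlr5 (chr1:182954538-182954837, plus strand), each written from 5' to 3' along its own gene.
Tlr2 promoter: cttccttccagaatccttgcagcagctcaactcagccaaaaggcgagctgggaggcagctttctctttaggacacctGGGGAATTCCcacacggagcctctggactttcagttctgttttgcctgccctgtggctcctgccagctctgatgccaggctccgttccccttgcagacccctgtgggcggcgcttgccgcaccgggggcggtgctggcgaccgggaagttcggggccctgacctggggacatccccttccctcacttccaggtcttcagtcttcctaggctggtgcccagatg
Tlr3 promoter: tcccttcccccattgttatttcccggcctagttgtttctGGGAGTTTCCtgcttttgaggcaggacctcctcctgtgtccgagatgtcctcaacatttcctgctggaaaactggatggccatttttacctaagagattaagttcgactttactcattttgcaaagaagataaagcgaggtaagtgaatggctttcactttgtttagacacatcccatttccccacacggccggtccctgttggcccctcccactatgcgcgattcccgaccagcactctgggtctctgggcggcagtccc
Myd88 promoter: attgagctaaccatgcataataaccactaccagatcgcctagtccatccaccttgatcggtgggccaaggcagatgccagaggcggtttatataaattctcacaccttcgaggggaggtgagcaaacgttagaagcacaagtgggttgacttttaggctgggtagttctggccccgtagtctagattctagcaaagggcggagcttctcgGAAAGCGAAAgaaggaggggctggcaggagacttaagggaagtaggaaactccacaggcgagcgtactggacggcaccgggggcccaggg
Tlr5 promoter: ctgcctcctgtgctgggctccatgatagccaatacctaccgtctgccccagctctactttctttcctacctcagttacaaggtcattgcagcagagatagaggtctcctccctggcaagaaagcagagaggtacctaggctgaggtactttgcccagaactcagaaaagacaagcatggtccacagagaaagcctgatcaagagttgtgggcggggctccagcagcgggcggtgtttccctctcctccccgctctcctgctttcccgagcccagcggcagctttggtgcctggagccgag
The Tlr2 window held 1 kappa B match, starting 173 bases before the transcript start, and the Tlr3 window held 1, starting 211 bases before it. Kappa B letters occurred in 2.92% of all 32851 windows of this length. The Myd88 window held 1 interferon-response match, starting 40 bases before the start, and such letters occurred in 3.44% of all windows. Neither kind of letters was found in the windows of Tlr1, Tlr5, Nod1, Nod2 and Tollip, which says only that these letters are absent from this stretch. The GC box letters GGGCGG stood in the windows of Tlr2, Tlr3, Tlr5, Nod2, Myd88 and Tollip and in 1 of the 2 Nod1 windows, and in 35.7% of all windows, while neither Tlr1 window held them. G and C made up from 40.3% (a Tlr1 window) to 62.0% (Tlr2 and Tollip) of these windows. The RefSeq start lies inside the gene's span in GENCODE by 159 bases for Tlr2, 700 bases for Tlr3, 1393 bases for Myd88 and 16046 bases for Tollip, so other starts of these genes were not searched. A match is a description of the letters and no measure of binding.

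Per exon length the 10 genes spanned a wide range, with Tlr1 the highest and Tlr5 the lowest in each of the 6 libraries. In CPM per kilobase of exon (RPKM), the mean over the 6 libraries was 30.0 for Tlr1, 16.8 for Sigirr, 16.7 for Myd88, 12.1 for Tollip, 8.30 for Tlr3, 8.27 for Tlr2, 5.90 for Nod1, 5.82 for Tlr4, 1.61 for Nod2 and 0.354 for Tlr5. The ranges over libraries did not overlap between Tlr1 (24.4 to 33.4 RPKM) and Sigirr (10.1 to 21.5 RPKM), nor between Tlr4 (4.09 to 8.24 RPKM) and Nod2 (0.338 to 2.27 RPKM). Every other neighbouring pair overlapped, although Nod2 was above Tlr5 in each of the 6 libraries. The lipopeptide co-receptor TLR1 was encoded by more transcripts per length than its partner TLR2 in every library.

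**Figure D1:**
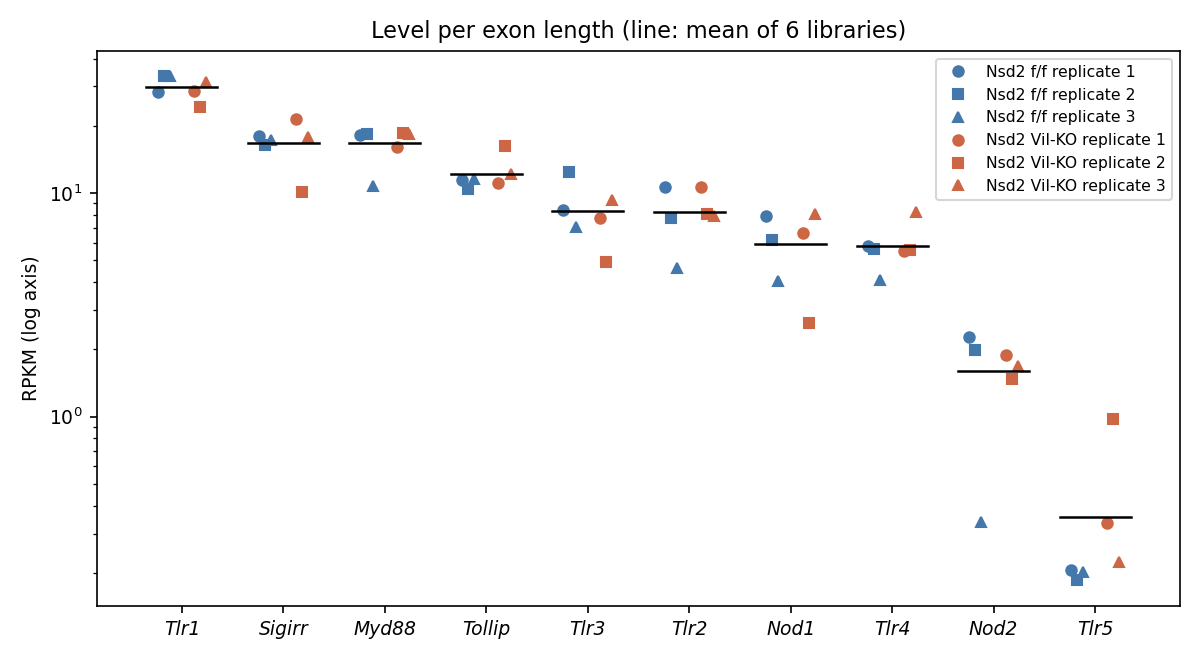
Level of the 10 genes per exon length in each of the 6 libraries (vertical log axis, RPKM; blue Nsd2 f/f, orange Nsd2 Vil-KO, symbols for replicates, black line the mean of the 6). Tlr1 lies at a mean of 30.0 RPKM, clear of the rest, and Tlr5 at 0.354 RPKM.

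Tlr1 (ENSMUSG00000044827) lies on chromosome 5 of GRCm38, at 64924679 to 64933563 on the minus strand. Its level was 95.1, 112 and 112 CPM in Nsd2 f/f and 96.2, 81.5 and 106 CPM in Nsd2 Vil-KO. The genotypes overlapped, and the lowest library was Nsd2 Vil-KO replicate 2. The log2 fold change was -0.17 (SE 0.18, 95% interval -0.58 to 0.25), with an adjusted p of 0.992 by edgeR and an exact two-sided permutation p of 0.3, where 0.1 is the smallest that 3 against 3 libraries allow. Without Nsd2 Vil-KO replicate 2 it was -0.07. Of the 10 genes Tlr1 varied least between libraries of a genotype (SD 0.16 on the log2 scale), and 10.6% of tested genes had a smaller spread.

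Tlr2 (ENSMUSG00000027995; chromosome 3, 83836272 to 83841767, minus strand), whose window above carries the kappa B letters, stood at 32.2, 23.4 and 14.0 CPM in Nsd2 f/f and at 32.1, 24.2 and 23.7 CPM in Nsd2 Vil-KO. The Nsd2 Vil-KO libraries fell within the range of the Nsd2 f/f libraries, of which replicate 3 was the lowest of all 6. A log2 fold change of 0.20 (SE 0.32, 95% interval -0.56 to 0.96, exact permutation p = 0.5) separated the means, and it was -0.06 without Nsd2 f/f replicate 3. The ratio of Tlr1 to Tlr2 in RPKM was 2.66, 4.31 and 7.19 in Nsd2 f/f and 2.70, 3.04 and 4.01 in Nsd2 Vil-KO (exact permutation p = 0.5, adjusted p = 0.6 over the 3 ratios of member pairs that were tested). The partner TLR6, the other co-receptor of TLR2, had few transcripts, with a Tlr6 mean of 0.296 RPKM.

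Tlr4 (ENSMUSG00000039005; chromosome 4, 66827584 to 66930284, plus strand) measured 32.4, 31.3 and 22.7 CPM in Nsd2 f/f and 30.8, 31.1 and 45.8 CPM in Nsd2 Vil-KO. A single library of each genotype lay outside a level that the other 4 shared, Nsd2 f/f replicate 3 below it and Nsd2 Vil-KO replicate 3 above it. This gave a log2 fold change of 0.32 (SE 0.24, 95% interval -0.26 to 0.89, exact permutation p = 0.6), with 0.10 when Nsd2 Vil-KO replicate 3 was left out and 0.17 when Nsd2 f/f replicate 3 was. The co-receptor gene Cd14, which presents lipopolysaccharide to TLR4, ranged from 57.2 to 142 RPKM and Ly96, which encodes MD-2, from 2.93 to 7.91 RPKM, with log2 fold changes of 0.27 (SE 0.35) and -0.16 (SE 0.47). Both rested on single libraries. Cd14 was at 0.04 without Nsd2 f/f replicate 3 and at 0.69 without Nsd2 f/f replicate 1. Ly96 was at -0.43 without Nsd2 Vil-KO replicate 2 and at 0.38 without Nsd2 f/f replicate 1.

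Tlr5 (ENSMUSG00000079164; chromosome 1, 182954788 to 182976044, plus strand) was the gene with the largest difference among the 10 and also the one with the fewest reads. It had 20, 15 and 12 counts in Nsd2 f/f and 33, 84 and 21 counts in Nsd2 Vil-KO, which corresponded to 0.991, 0.886 and 0.969 CPM and to 1.61, 4.66 and 1.07 CPM. Every Nsd2 Vil-KO library was above every Nsd2 f/f library, but the lowest of the former and the highest of the latter lay close together and Nsd2 Vil-KO replicate 2 was far above the rest. The log2 fold change was 1.35 (SE 0.64, 95% interval -0.17 to 2.86), with an unadjusted p of 0.0731 and an adjusted p of 0.992 by edgeR and an exact permutation p of 0.1, the smallest possible. It was 0.50 (unadjusted p = 0.278 by edgeR) without Nsd2 Vil-KO replicate 2 and 1.71 (unadjusted p = 0.0316 by edgeR, past the screening criterion) without Nsd2 Vil-KO replicate 3. In the 4 libraries without Xist transcripts it was 0.52. Summed neutrophil markers were also highest in Nsd2 Vil-KO replicate 2 (2363 CPM), of which Ly6g alone made 1355 CPM. Ly6g, S100a8, S100a9 and Ngp were each highest in that library, and Csf3r was lowest there. The other markers, Csf3r, Cxcr2, Retnlg, Mmp8 and Camp, were highest in Nsd2 f/f replicate 1. In the epithelial list Epcam, Krt18, Cdx2, Lgals4 and Cldn7 were also highest in Nsd2 Vil-KO replicate 2, while Cdh1, Vil1, Krt20 and Cdx1 were lowest there. The part of cell content in the Tlr5 value was not tested.

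Tlr3 (ENSMUSG00000031639; chromosome 8, 45395665 to 45411080, minus strand), the sensor of double-stranded RNA, stood at 43.9, 64.5 and 36.7 CPM in Nsd2 f/f and at 40.2, 25.5 and 48.7 CPM in Nsd2 Vil-KO. Nsd2 f/f replicate 2 was the highest library and Nsd2 Vil-KO replicate 2 the lowest, and the genotypes overlapped. Its log2 fold change was -0.34 (SE 0.31, 95% interval -1.07 to 0.38, exact permutation p = 0.5), and -0.08 without Nsd2 f/f replicate 2 or -0.12 without its lowest library. The same libraries were the highest and the lowest in the sum of 26 interferon-stimulated genes, which came to 2405, 5366 and 714 CPM in Nsd2 f/f and to 1471, 700.4 and 1548 CPM in Nsd2 Vil-KO, and the part of that response in the Tlr3 values was not tested. An antisense gene, Gm45542, shares 381 exonic bases with Tlr3 and had 0 counts in each library. The use of strand in counting is not given in the sources used here, so reads in that stretch are uncertain.

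**Figure D2:**
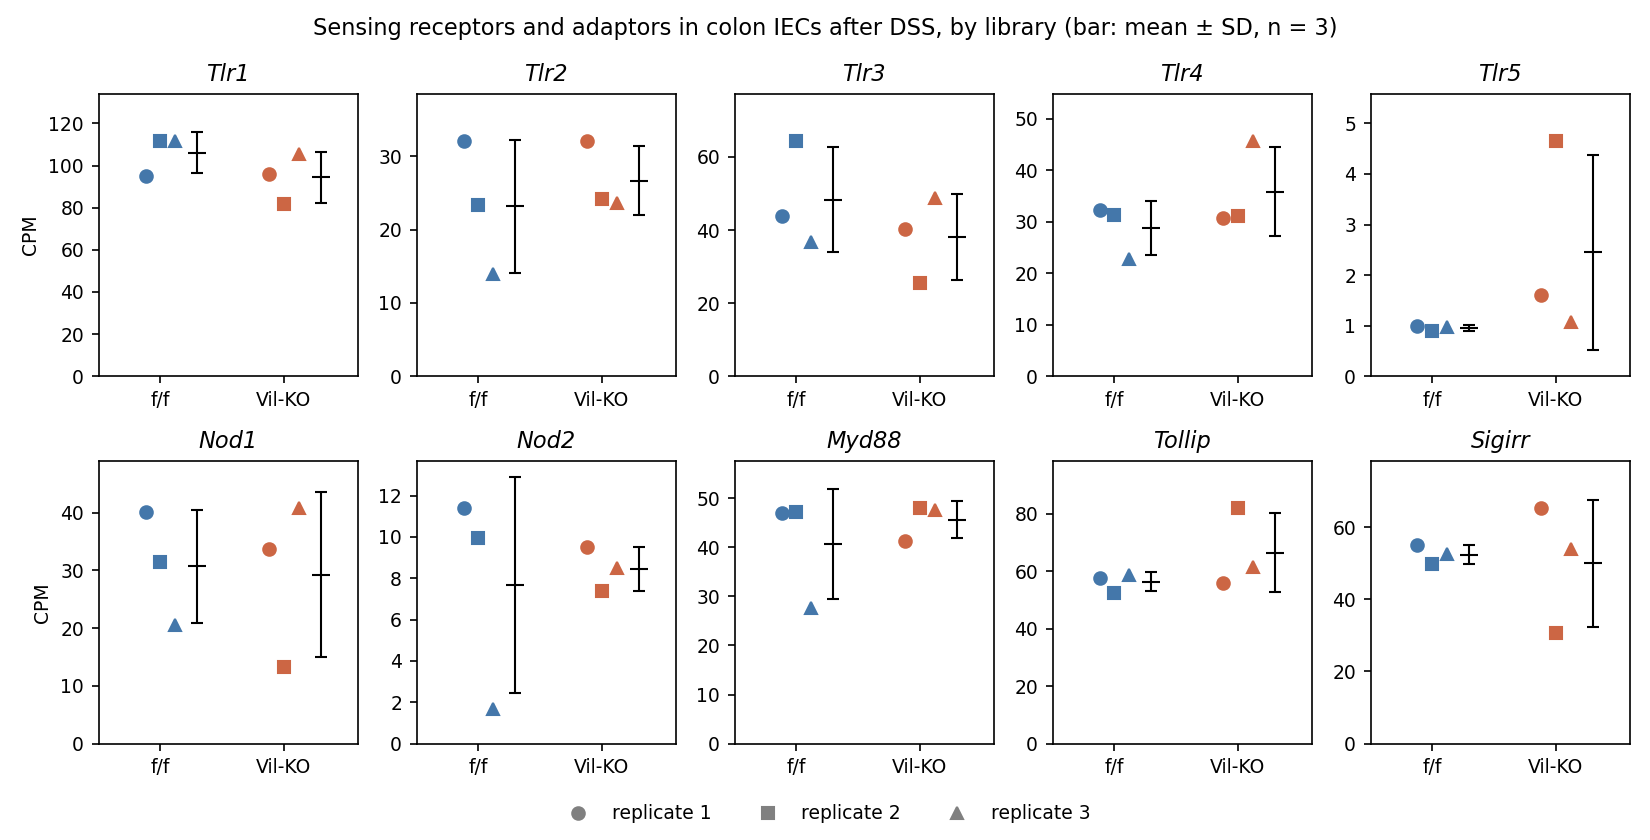
CPM of each of the 10 genes (vertical axes, linear and starting at 0) in 3 Nsd2 f/f libraries (blue) and 3 Nsd2 Vil-KO libraries (orange), with symbols for replicates and a black bar for the mean ± SD. The groups overlap in 9 panels, and in the Tlr5 panel 1 Nsd2 Vil-KO library at 4.66 CPM lies far above the other 5.

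Nod1 (ENSMUSG00000038058; chromosome 6, 54923949 to 54972612, minus strand) measured 40.1, 31.4 and 20.5 CPM in Nsd2 f/f and 33.7, 13.3 and 40.8 CPM in Nsd2 Vil-KO. Both genotypes held a high and a low library, and Nsd2 Vil-KO replicate 2 was the lowest. Its log2 fold change was -0.07 (SE 0.43, 95% interval -1.09 to 0.95, exact permutation p = 0.9), and leaving out Nsd2 f/f replicate 1 turned it to 0.17, as leaving out Nsd2 Vil-KO replicate 2 turned it to 0.28.

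Nod2 (ENSMUSG00000055994; chromosome 8, 88647315 to 88688474, plus strand) stood at 11.4, 9.93 and 1.70 CPM in Nsd2 f/f and at 9.51, 7.38 and 8.48 CPM in Nsd2 Vil-KO. Only Nsd2 f/f replicate 3, with 21 counts, departed from the others. The genotypes differed by a log2 fold change of 0.12 (SE 0.59, 95% interval -1.28 to 1.53, exact permutation p = 1.0), and -0.33 without that library. Nod2 varied most of the 10 genes between libraries of a genotype (SD 1.06 on the log2 scale), and 89.2% of tested genes had a smaller spread. The ratio of Nod1 to Nod2 in RPKM was 3.48, 3.13 and 11.9 in Nsd2 f/f and 3.50, 1.78 and 4.75 in Nsd2 Vil-KO (exact permutation p = 0.6, adjusted p = 0.6).

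Myd88 (ENSMUSG00000032508; chromosome 9, 119335934 to 119341411, minus strand), the adaptor shared by the bacterial TLRs and the interleukin-1 receptors, measured 47.1, 47.2 and 27.6 CPM in Nsd2 f/f and 41.3, 48.0 and 47.6 CPM in Nsd2 Vil-KO. Apart from Nsd2 f/f replicate 3 the libraries lay close together in both genotypes. Its log2 fold change was 0.17 (SE 0.24, 95% interval -0.40 to 0.73, exact permutation p = 0.5), and -0.04 without that library. The gene shares 290 exonic bases with Acaa1a on the other strand, which had between 88.6 and 161 CPM, and the use of strand in counting is not given in the sources used here, so reads in that stretch are uncertain.

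Tollip (ENSMUSG00000025139; chromosome 7, 141874813 to 141918507, minus strand) stood at 57.7, 52.5 and 58.8 CPM in Nsd2 f/f and at 56.0, 81.9 and 61.3 CPM in Nsd2 Vil-KO. Only Nsd2 Vil-KO replicate 2 lay far from the other 5 libraries, which ranged from 52.5 to 61.3 CPM. This gave a log2 fold change of 0.24 (SE 0.19, 95% interval -0.22 to 0.69, exact permutation p = 0.3), and 0.06 without Nsd2 Vil-KO replicate 2.

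Sigirr (ENSMUSG00000025494; chromosome 7, 141091175 to 141100572, minus strand), a receptor of the interleukin-1 family that holds back TLR and interleukin-1 signals, measured 54.9, 49.9 and 52.4 CPM in Nsd2 f/f and 65.3, 30.8 and 54.0 CPM in Nsd2 Vil-KO. The highest and the lowest library were both Nsd2 Vil-KO, and the Nsd2 f/f libraries lay between them. The genotypes differed by a log2 fold change of -0.07 (SE 0.28, 95% interval -0.72 to 0.59, exact permutation p = 0.9), and 0.19 without Nsd2 Vil-KO replicate 2. The ratio of the inhibitor Sigirr to the adaptor Myd88 in RPKM was 0.988, 0.895 and 1.61 in Nsd2 f/f and 1.34, 0.543 and 0.960 in Nsd2 Vil-KO (exact permutation p = 0.5, adjusted p = 0.6).

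**Figure D3:**
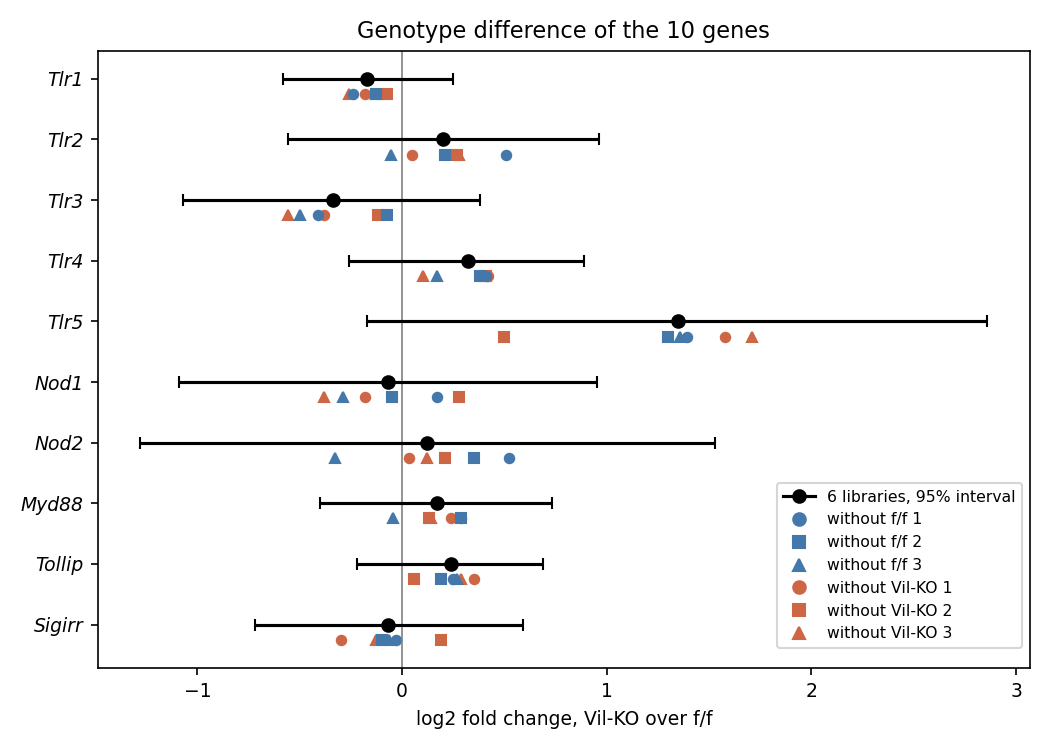
Log2 fold change of each gene, Nsd2 Vil-KO over Nsd2 f/f (horizontal axis), with its 95% interval (black, 6 libraries) and the value with each library left out (coloured symbols, named by the library removed). Every interval includes 0, and Tlr5 moves between 0.50 and 1.71.

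For 8 of the 10 genes the lowest library was 1 of the same 2, a count that was not made over all tested genes. Nsd2 f/f replicate 3 was the lowest of the 6 for Tlr2, Tlr4, Nod2 and Myd88, and the median over the 10 genes of its log2 deviation from the mean of all libraries was -0.46, against values between -0.01 and 0.14 for the other 5. It was also the library with the lowest macrophage sum (14.1 CPM) and the highest mitochondrial share. Nsd2 Vil-KO replicate 2 was the lowest for Tlr1, Tlr3, Nod1 and Sigirr and the highest for Tlr5, Myd88 and Tollip. Nsd2 Vil-KO replicates 1 and 3 and Nsd2 f/f replicate 1 were lowest for none of the 10. Over the 10 genes the median within-genotype SD was 0.42 on the log2 scale, beside 0.41 over all tested genes, so these genes were about as variable as the rest. With both of these libraries left out, 8 of the 10 log2 fold changes lay between -0.27 and 0.20, Tlr4 stood at 0.27 and Tlr5 at 0.52, and none passed the screening criterion. The part of cell content and of RNA quality in these deviations was not tested.

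**Figure D4:**
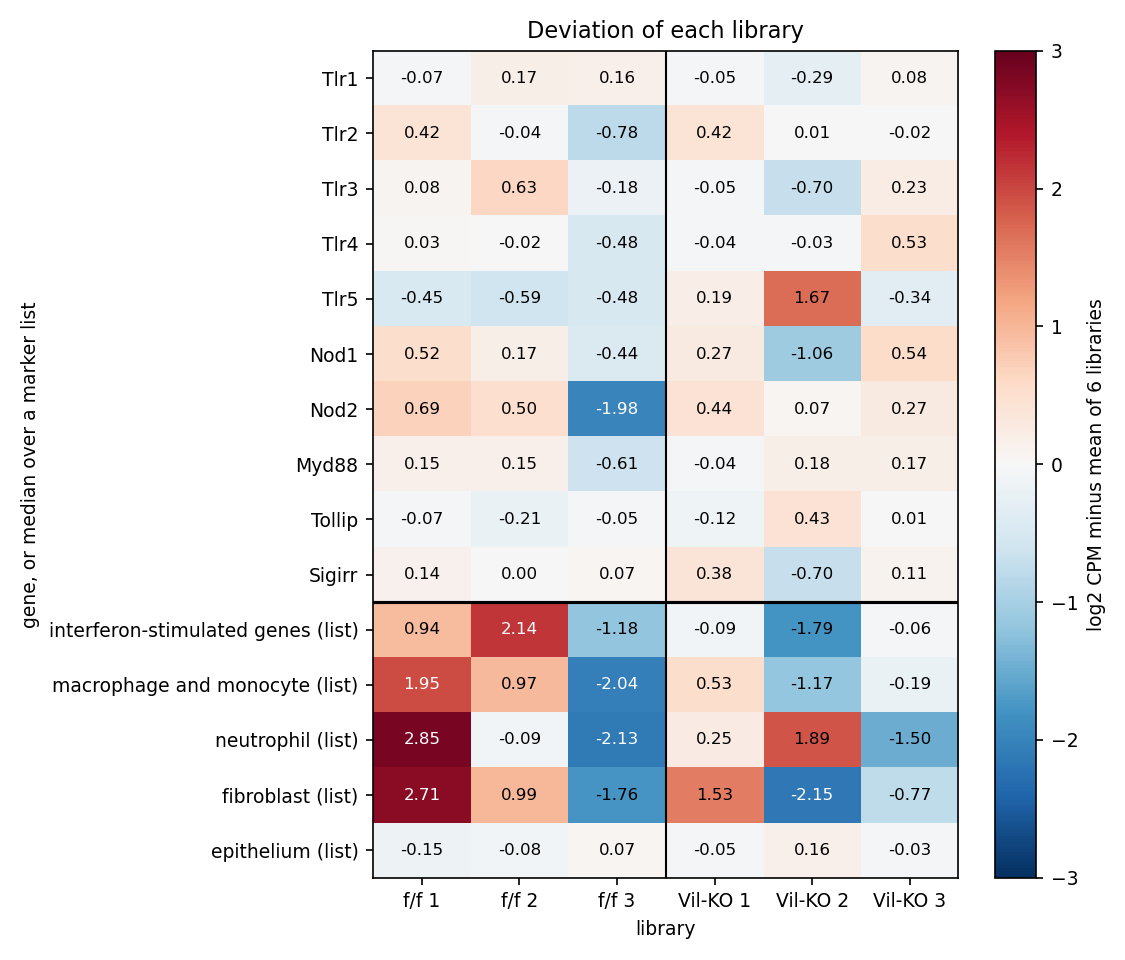
Log2 CPM of each gene minus its mean over the 6 libraries (upper 10 lines) and the median of the same over the genes of 5 lists (lower lines), by library; red is above the mean and blue below. Nsd2 f/f replicate 3 is at -1.98 for Nod2 and Nsd2 Vil-KO replicate 2 at 1.67 for Tlr5, and the lists of macrophage, neutrophil, fibroblast and interferon-stimulated genes differ between libraries far more than the epithelial list.

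Around these receptors, 7 of the 127 tested genes of 10 pathway lists passed the screening criterion, 2 higher and 5 lower in Nsd2 Vil-KO, where the share over all tested genes was 3.29%. Among the 7 other Toll-like receptors only Tlr6 and Tlr12 had enough counts to be tested, and neither passed. Tlr6 stood at 1.93, 1.48 and 1.05 CPM in Nsd2 f/f and at 1.12, 0.277 and 0.766 CPM in Nsd2 Vil-KO, and Tlr13, a sensor of bacterial ribosomal RNA, at 3.22 CPM or less. Of 7 tested co-receptors and chaperones 1 passed, Lbp, which encodes the protein that transfers lipopolysaccharide to CD14. Lbp was at 9.31, 9.22 and 3.80 CPM in Nsd2 f/f and at 2.68, 42.9 and 67.5 CPM in Nsd2 Vil-KO (log2 fold change 2.33, SE 0.97, unadjusted p = 0.0463 and adjusted p = 0.992 by edgeR). Its lowest library was thus Nsd2 Vil-KO replicate 1, and the call held in 1 of the 6 fits with a library left out.

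None of the 4 tested TIR adaptors other than Myd88 passed, with Ticam1, the adaptor of TLR3, at a log2 fold change of -0.07 (SE 0.24) and Tirap, which bridges TLR2 and TLR4 to MYD88, at 0.38 (SE 0.21). None of the 19 kinases, adaptors and ubiquitin enzymes between MYD88 and NF-kB passed (median 0.10, between 0.02 and 0.15 with 1 library left out), and the most abundant by CPM, Ube2n and Tab2, stood at -0.19 (SE 0.16) and 0.21 (SE 0.20). None of the 20 genes of the NOD route passed (median -0.04, between -0.14 and 0.08), with Erbin, a NOD2-binding scaffold, at 0.05 (SE 0.27) and Tifa, the adaptor for bacterial heptose sugars, at 0.40 (SE 0.50). Tifa measured 243, 217 and 54.0 CPM in Nsd2 f/f and between 217 and 242 CPM in Nsd2 Vil-KO, and so departed in the same library as Nod2, without which its log2 fold change was -0.02. None of the 12 interleukin-1 family genes passed (median -0.33, and 0.17 without Nsd2 f/f replicate 1), with Il18 at 0.09 (SE 0.40) and Il1rn, the interleukin-1 receptor antagonist, at -0.05 (SE 0.32). Since only 3.29% of all tested genes passed, lists of 4 to 20 genes without a pass cannot be told apart from that share. Leaving out 1 library also turned the direction of Ticam1 (0.18 without Nsd2 f/f replicate 3), Erbin (-0.15 without Nsd2 Vil-KO replicate 2), Il18 (-0.26 without the same library) and Il1rn (0.17 without Nsd2 Vil-KO replicate 3), and took Tab2 to 0.03 without Nsd2 Vil-KO replicate 2.

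A single inhibitor of the pathway did pass. Zc3h12a encodes Regnase-1, an RNase that degrades inflammatory mRNAs, and it was at 92.2, 79.6 and 61.7 CPM in Nsd2 f/f and 116, 152 and 156 CPM in Nsd2 Vil-KO. Every Nsd2 Vil-KO library was above every Nsd2 f/f library, as was so for 5.21% of all tested genes. The log2 fold change was 0.86 (SE 0.22, unadjusted p = 0.00554 and adjusted p = 0.992 by edgeR, exact permutation p = 0.1), and the gene passed the criterion in 6 of 6 fits with a library left out, where it lay between 0.72 and 1.00. Zc3h12a was in 2 lists and the only gene of each to pass, among 14 negative regulators and 24 tested NF-kB target genes. Over all tested genes 1.65% passed as higher and 3.29% in either direction. The 2 lists had medians of 0.18 (between 0.02 and 0.28 with 1 library left out) and 0.14 (between -0.04 and 0.42).

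Of 26 interferon-stimulated genes 5 passed the criterion, each lower in Nsd2 Vil-KO (1.65% of all tested genes were), and all 26 log2 fold changes were below 0 (median -1.59, and -0.68 without Nsd2 f/f replicate 2). Ifit3, an antiviral effector, was at 16.9, 91.9 and 4.28 CPM in Nsd2 f/f and at 5.61, 1.17 and 4.85 CPM in Nsd2 Vil-KO (log2 fold change -3.28, SE 1.11). Isg15, a ubiquitin-like modifier, was at -2.40 (SE 0.89), Ifit1 at -2.40 (SE 0.95) and Rtp4 at -1.63 (SE 0.57), and the fifth, Rsad2, fell outside the rule for named genes and was named after its values were seen. Nsd2 f/f replicate 2 was the highest library for each of the 4 genes, while Nsd2 f/f replicate 3 was not above all the Nsd2 Vil-KO libraries for any. The count rested on single libraries, with 0 of 26 past the criterion without Nsd2 f/f replicate 2, 0 without Nsd2 Vil-KO replicate 2 and 20 without Nsd2 f/f replicate 3. None of the 10 genes listed for cytosolic nucleic acid sensing passed (median -0.30, and -0.03 without Nsd2 f/f replicate 2). That list holds adaptors and transcription factors beside the sensors. Irf7, a transcription factor that is also 1 of the 26 interferon-stimulated genes, was at -1.63 (SE 0.70) and the sensor Zbp1 at -0.68 (SE 0.92). Without Nsd2 f/f replicate 2 they stood at -0.68 and 0.03.

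**Figure D5:**
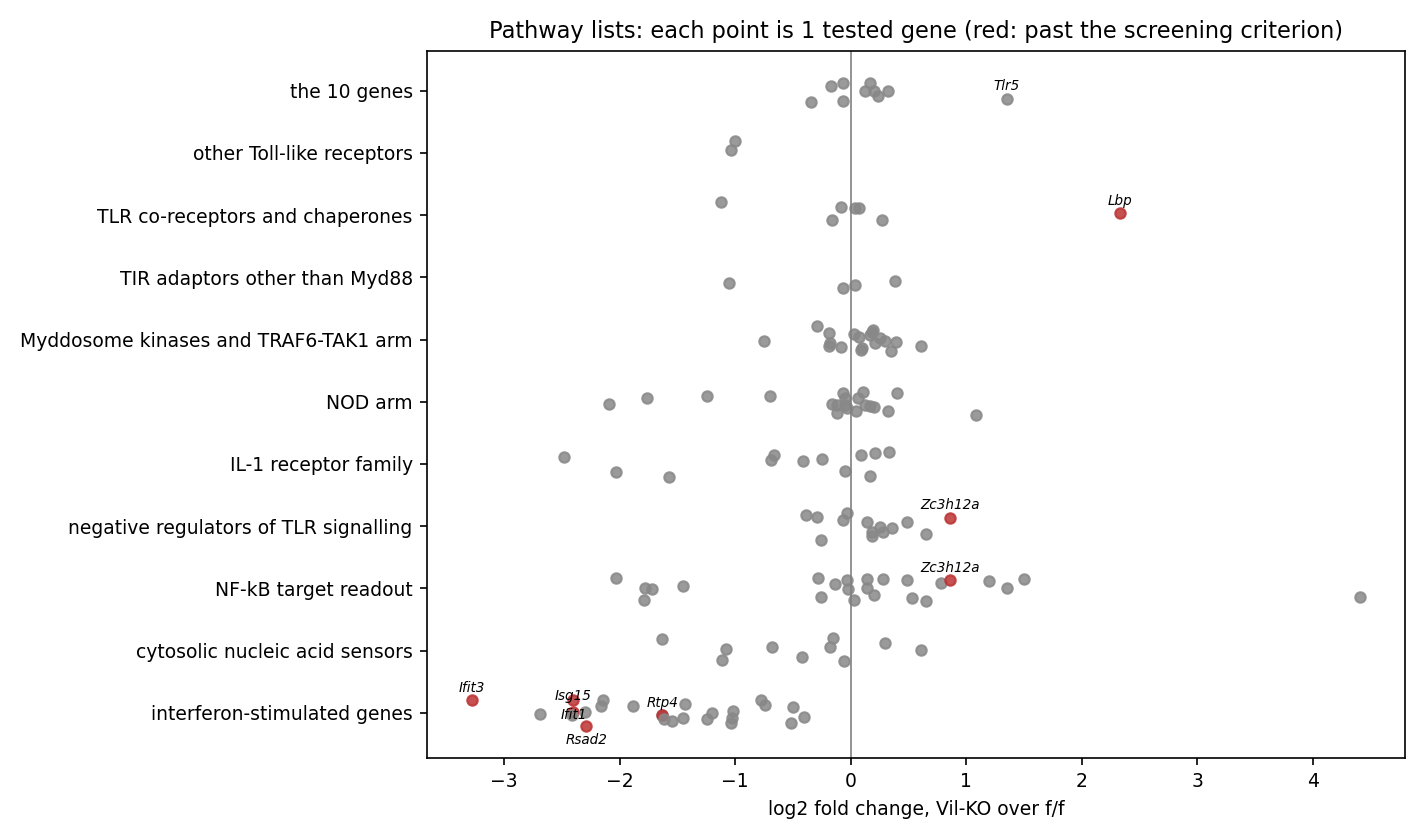
Log2 fold change, Nsd2 Vil-KO over Nsd2 f/f (horizontal axis), of every tested gene of the 10 receptors and adaptors and of 10 pathway lists (lines; vertical scatter within a line has no meaning). Red points passed the screening criterion and are named with Tlr5: Lbp and Zc3h12a lie to the right of 0 and 5 of 26 interferon-stimulated genes to the left, while none of the 10 receptors and adaptors is red.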

How the data were processed

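RNA-seq of colon IECs was analysed in 6 libraries, grouped by the sample labels, 3 per genotype. The table deposited by the authors holds raw counts, whole numbers of reads assigned to each Ensembl gene with no normalisation, in 1 column per library. By the methods and the submitters' processing notes, polyA RNA was sequenced in pairs, reads were trimmed with Cutadapt 1.9.1 and Trimmomatic 0.35 and aligned to GRCm38 with HISAT2; the counting program and strand setting are not given in the sources used here, and labels and methods name different library kits.

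Counts were compared in R 4.3.3 with edgeR 4.0.16 (TMM, filterByExpr, robust quasi-likelihood test, no covariate) over 14650 genes with Benjamini-Hochberg adjustment, and single genes also by an exact two-sided permutation test over 10 splits. CPM used TMM factors. RPKM divided CPM by exon length from the GENCODE annotation of GRCm38. Deviations used log2 CPM with a prior count of 2. Floors of 3 counts correspond to 0.146 to 0.242 CPM per library and cover counting error only. The 10 genes, the lists and the alternatives (DESeq2 1.42.0, limma 3.58.1, other normalisations and filters, covariates, a replicate block and libraries left out) were chosen with earlier results of these data known. The rule for named genes took all 10, Nsd2, and from each list the genes past the screening criterion (at most 4 per direction, by p) or, where none passed, the 2 most abundant by CPM. Beside these, genes are named as partners of a receptor or where a library departed.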

Additional observations from a re-analysis of the deposited data

How the results depend on the processing

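None of the 10 genes passed the screening criterion under any of the 11 alternatives that kept or changed the fit as a whole, and with 1 library left out the count ranged from 0 to 1 (Tlr5, without Nsd2 Vil-KO replicate 3). Of 170 recomputed log2 fold changes of the 10 genes, 154 kept their direction and side of the criterion, 15 turned direction and 1 (Tlr5) came to pass, and the lowest adjusted p of any of them was 0.597. Directions turned only for genes within 0.20 of 0 in the main comparison: Nod1 to 0.079 by limma-voom and 0.065 with both libraries with Xist left out, Nod2 to -0.14 and -0.24, Myd88 to -0.035 and -0.074, and Sigirr to 0.14 and 0.20, as well as 0.021 with library size alone. When single libraries were removed, the range was -0.056 to 0.51 for Tlr2, 0.50 to 1.71 for Tlr5, -0.38 to 0.28 for Nod1, -0.33 to 0.52 for Nod2, -0.043 to 0.29 for Myd88 and -0.30 to 0.19 for Sigirr. The Tlr5 value was 0.52 by limma-voom and without both libraries with Xist, and from 1.11 to 1.36 in the other alternatives that kept all libraries.

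Over all genes, 482 past the criterion became 861 with no filter, where 26360 genes were tested and the share was 3.27% against 3.29%. The count was 1440 by limma-voom, 1145 with Xist as a covariate, 1646 without both libraries with Xist, and from 323 (Nsd2 f/f replicate 2 removed) to 769 (Nsd2 Vil-KO replicate 2 removed) with 1 library left out, and the cause was not tested. At an adjusted p below 0.05 there were 4 genes by DESeq2 and 0 otherwise. Among the pathway lists 7 became 15 by DESeq2, 25 by limma-voom, 25 with Xist as a covariate and 21 without both libraries with Xist. Interferon-stimulated genes made up 12, 18, 18 and 12 of these, in that order. With 1 library left out the count lay between 1 (without Nsd2 f/f replicate 2, or without Nsd2 Vil-KO replicate 2) and 31 (without Nsd2 f/f replicate 3, 20 of them interferon-stimulated). The labels number the replicates but name no pairs. Deviations of same-numbered libraries correlated at 0.322, -0.35 and -0.108, and not every library correlated best with its own number. These values cannot settle whether libraries were paired, because deviations from a mean of 3 libraries depend on each other. With the replicate number as a block, 303 genes and 3 pathway genes passed, none of them among the 10 or the interferon-stimulated genes. With 12 to 84 counts a library, Tlr5 had the fewest reads of the 10 genes, and the part of counting error in its SE was not tested.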

Other observations

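Among the 127 tested pathway genes outside the 10, 7 had levels that did not overlap between genotypes, a smaller share than the 9.9% of all tested genes. Besides Zc3h12a, they were named after their values were seen: Cnpy3, Traf3, Xiap, Nlrc3 and Aim2 were higher and Ube2n was lower in each Nsd2 Vil-KO library. Xiap encodes a ubiquitin ligase needed for NOD2 signalling, and it measured 75.7, 72.8 and 78.4 CPM in Nsd2 f/f and 87.5, 89.4 and 106 CPM in Nsd2 Vil-KO (log2 fold change 0.32, SE 0.16, unadjusted p = 0.0866 by edgeR). Aim2, a sensor of cytosolic DNA, measured 77.3, 80.9 and 82.6 CPM in Nsd2 f/f and 95.3, 112 and 90.2 CPM in Nsd2 Vil-KO (0.30, SE 0.16). Neither passed the screening criterion in the main comparison. Xiap passed by limma-voom, with Xist as a covariate and without both libraries with Xist (log2 fold change 0.39, unadjusted p = 0.0162 by edgeR), and Aim2 passed with Xist as a covariate.

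The peptide transporter gene Slc15a1, which carries bacterial peptides into enterocytes, was at 45.8, 48.7 and 133 CPM in Nsd2 f/f and 41.8, 7.99 and 46.4 CPM in Nsd2 Vil-KO, so that the 2 libraries with Xist transcripts held its highest and its lowest level. Lcn2, an antimicrobial protein gene driven by NF-kB, reached 1808 CPM in Nsd2 Vil-KO replicate 2 and between 1.78 and 75.0 CPM in the other 5 libraries. Il1b ranged from 2.34 to 424 CPM within Nsd2 f/f and from 5.88 to 107 CPM within Nsd2 Vil-KO. These 3 genes were also named after their values were seen.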
